A study of Mus musculus with 8 samples.

Results

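FOXA1 and HNF4G loops were compared within the tumor cell line of the KPC mouse. KPC mice develop pancreatic cancer from mutant alleles that Cre switches on in the pancreas. The members were all loops of the FOXA1 and HNF4G lists of this line, and loops with identical anchor pairs were taken as the same loop. Together the lists held 150925 distinct loops, out of 249200 in all 4 lists of the series. The series had 8 samples, with 2 replicates in each of 4 groups, namely FOXA1 and HNF4G Hi-ChIP in a tumor line and in a liver metastasis (liver mets) line. All 4 groups were labelled WT and untreated mouse pancreatic cancer cells, grown in DMEM with serum, and by the labels differed in line and antibody. Each tissue was represented by 1 cell line, and the labels do not say whether replicates came from separate cultures. Each group had 1 loop list that covered both replicates. There was therefore no spread between replicates and no test between groups, and every 95% interval given here covers counting error only.

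FOXA1 is a forkhead protein that can bind its sites in closed chromatin and is called a pioneer factor for this reason. HNF4G is a nuclear receptor of the HNF4 family, which acts with FOXA factors at gut, liver and pancreas genes. Hi-ChIP ligates DNA ends that lie close together in the nucleus, enriches them with an antibody, and reads out pairs of distant fragments called anchors. A listed loop is therefore a contact found in the chromatin that the antibody enriched, and it does not show on its own that the factor bound at either anchor.

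The epithelial identity of the line could be checked only through contacts and not through RNA. The promoters of all 6 ductal epithelial markers (Krt19, Krt8, Krt18, Epcam, Cdh1 and Sox9) were at loop anchors, with 179 FOXA1 and 162 HNF4G loops in sum. None of the 7 acinar, 5 endocrine or 4 endothelial markers had a promoter anchor. Of the other markers, 2 of 6 for fibroblasts (Pdgfra and Col1a1), 1 of 5 for immune cells (Cd68) and 1 of 5 for hepatocytes (Apoa1) had one. A promoter anchor was not particular to epithelial genes, since 18 of 25 listed mesenchymal genes had one as well. It was present for 21 of 25 epithelial junction and keratin genes and 13 of 25 classical subtype markers. These contacts therefore do not settle the identity of the line. The promoter of Foxa1 itself had 8 FOXA1 and 6 HNF4G loops. The promoter of Hnf4g had 2 and 1.

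The first anchors on each side were picked by the ratio compared here, so they are examples only. Larger sets of anchors are compared further below. For each anchor, gene and 1 Mb window, the number of loops was divided by the size of its list, and the FOXA1 share was divided by the HNF4G share. This ratio of list shares is 1 where a feature holds the same share of both lists. Of the 4 anchors that ranked first toward FOXA1, 3 had no annotated transcription start within 2 kb, whereas all 4 that ranked first toward HNF4G were promoter anchors. The central 200 bases of 6 of these 8 anchors are given here from GRCm38, plus strand, with each CpG in capitals, to show how far they differed in composition. The other anchors, at Kcnh3 (28 CpG in the central 200 bases) and at 2810408A11Rik and Neurl4 (5 CpG), are not printed because these bases reach into annotated UTRs.
Tbc1d1 anchor (FOXA1), chr5:64344675-64344874: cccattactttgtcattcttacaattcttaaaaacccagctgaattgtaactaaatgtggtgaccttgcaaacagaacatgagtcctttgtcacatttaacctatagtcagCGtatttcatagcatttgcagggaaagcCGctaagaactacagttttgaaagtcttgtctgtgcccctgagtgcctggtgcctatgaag
Hs2st1 anchor (FOXA1), chr3:144551562-144551761: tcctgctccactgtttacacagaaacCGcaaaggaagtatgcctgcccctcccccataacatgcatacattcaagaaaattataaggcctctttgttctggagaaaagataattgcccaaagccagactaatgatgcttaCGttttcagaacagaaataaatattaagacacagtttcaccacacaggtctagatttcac
Intergenic anchor on chromosome 11 (FOXA1), chr11:20956829-20957028: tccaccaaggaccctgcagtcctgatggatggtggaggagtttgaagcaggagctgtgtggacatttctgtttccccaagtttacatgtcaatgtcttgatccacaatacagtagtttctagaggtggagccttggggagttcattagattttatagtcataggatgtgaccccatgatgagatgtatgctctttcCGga
Smagp anchor (HNF4G), chr15:100635951-100636150: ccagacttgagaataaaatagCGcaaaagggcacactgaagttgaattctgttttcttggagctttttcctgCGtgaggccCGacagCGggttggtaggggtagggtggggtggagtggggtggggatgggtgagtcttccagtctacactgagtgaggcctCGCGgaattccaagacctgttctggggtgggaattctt
Drd4 anchor (HNF4G), chr7:141293995-141294194: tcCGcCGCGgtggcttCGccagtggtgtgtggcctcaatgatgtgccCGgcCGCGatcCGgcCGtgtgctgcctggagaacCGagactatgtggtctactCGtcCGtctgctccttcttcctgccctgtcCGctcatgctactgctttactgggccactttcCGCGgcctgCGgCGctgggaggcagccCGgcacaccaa
C1ql1 anchor (HNF4G), chr11:102947944-102948143: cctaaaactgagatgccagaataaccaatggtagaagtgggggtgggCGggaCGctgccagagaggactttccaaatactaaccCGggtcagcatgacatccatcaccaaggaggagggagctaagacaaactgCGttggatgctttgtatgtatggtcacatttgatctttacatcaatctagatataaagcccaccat

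The Tbc1d1 stretch lay in an intron and held 2 CpG at 41% GC. The Hs2st1 stretch, also intronic, held 2 CpG, and the intergenic stretch held 1. On the HNF4G side the Smagp stretch held 6 CpG. The Drd4 stretch held 18 at 65.5% GC and overlapped coding sequence of Drd4, and the C1ql1 stretch held 4 at 47% GC. The C1ql1 stretch shows that not every HNF4G anchor was rich in CpG at its centre.

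Selected motif matches of these anchors are printed, namely forkhead matches of FOXA1 anchors and the HNF4 match of an HNF4G anchor. Forkhead matches of HNF4G anchors are counted below and not printed. The sequences are again the plus strand of GRCm38, with the match in capitals, and each is the match nearest to the centre of its anchor. A match is a run of letters and not a mapped binding site.
Forkhead, anchor at 2810408A11Rik and Neurl4 (FOXA1), chr11:69900603-69900702: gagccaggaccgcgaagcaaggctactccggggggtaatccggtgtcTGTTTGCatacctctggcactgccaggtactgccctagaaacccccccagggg
Forkhead, intergenic anchor on chromosome 11 (FOXA1), chr11:20957703-20957802: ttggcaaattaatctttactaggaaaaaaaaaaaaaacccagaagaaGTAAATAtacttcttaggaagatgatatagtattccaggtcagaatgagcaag
HNF4, Drd4 anchor (HNF4G), chr7:141293616-141293715: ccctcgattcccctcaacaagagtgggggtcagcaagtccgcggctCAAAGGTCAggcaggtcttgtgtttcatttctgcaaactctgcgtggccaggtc

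The intergenic anchor at chr11:20954236-20959622 held 5 forkhead matches, the Tbc1d1 anchor 2 and the Hs2st1 anchor 1. The anchor at 2810408A11Rik and Neurl4 held 1, and there the printed stretch overlapped coding sequence of 2810408A11Rik. Among the 4 anchors first toward HNF4G, only the Drd4 anchor held an HNF4 match, in a stretch that overlapped coding sequence, and it held 1 forkhead match as well. The Smagp anchor held 2 forkhead matches. The 4 anchors first toward FOXA1 held no HNF4 match.

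Shared and factor-only loops were compared next. The FOXA1 list held 104136 loops and the HNF4G list 76323. Of the distinct loops, 74602 were listed for FOXA1 only, 46789 for HNF4G only and 29534 for both. FOXA1-only loops were thus 71.6% of the FOXA1 list and HNF4G-only loops 61.3% of the HNF4G list. Shared loops were short. Their median span was 51.4 kb (middle 50% of loops, 19.6 to 129.6 kb), against 206.7 kb (77.7 to 513.8 kb) for FOXA1-only and 235.0 kb (90.4 to 578.3 kb) for HNF4G-only loops. The overlap fell along the span. Below 10 kb, 81.9% of HNF4G loops and 69.0% of FOXA1 loops were shared, between 100 and 200 kb 35.9% and 25.8%, and between 1000 and 2000 kb 4.42% and 3.22%. The surplus of FOXA1 loops was present in every span range, from 1.19 FOXA1 loops per HNF4G loop (95% interval 1.14 to 1.24) below 10 kb to 1.44 (1.41 to 1.47) between 200 and 500 kb.

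**Figure D1:**
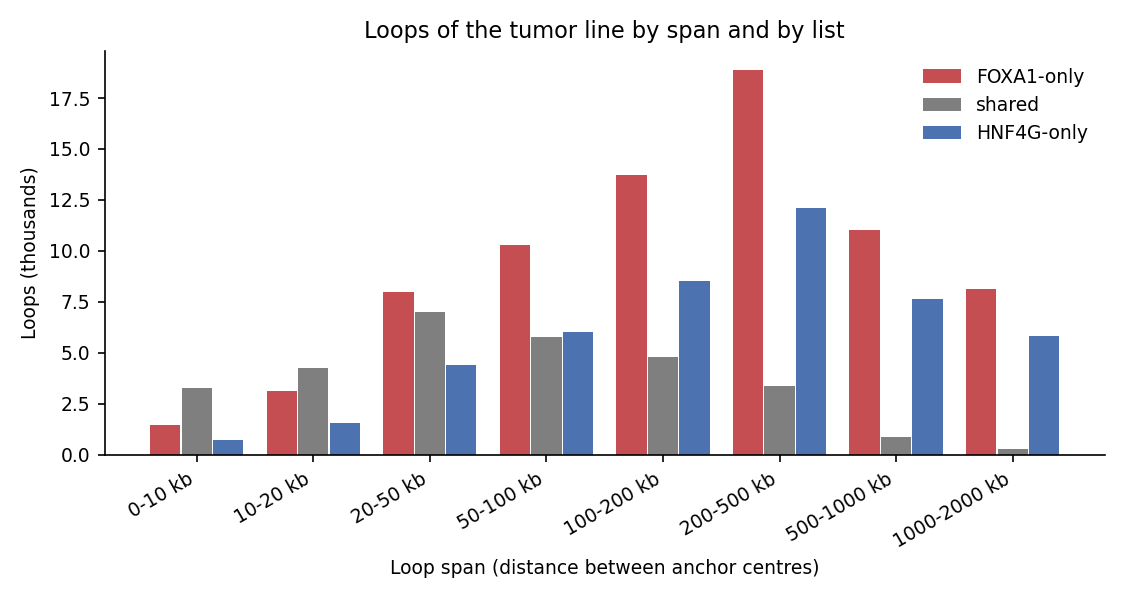
Number of loops in the tumor line (y axis, in units of 1000 loops) by span between anchor centres (x axis), for loops listed for FOXA1 only, for both factors and for HNF4G only. Shared loops were the most numerous class below 20 kb, with 3252 and 4256 loops in the first 2 ranges, and the smallest class from 50 kb upward, with 270 loops above 1000 kb.

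Loops at the top value were nearly all shared, although the typical shared loop had a low value. Each loop carried a value that ended at 20, larger for stronger support, read here as −log10 of a p or q value from its range alone. At this top value there were 114 FOXA1 and 111 HNF4G loops, of which 111 and 106 were listed for the other factor too. Of the loops with a value of 2 or more, 43.0% of FOXA1 and 55.04% of HNF4G loops were shared. FOXA1-only loops reached 2 in 6.24% and HNF4G-only loops in 5.37%. The shared loops reached it in 11.9% by their FOXA1 value and 10.4% by their HNF4G value, and 1349 of them did so in both lists. The median value was lower for shared loops, 0.692 in the FOXA1 list and 0.654 in the HNF4G list, than for FOXA1-only (1.70) or HNF4G-only loops (1.85). When equal numbers of the highest-value loops were taken from both lists, 18.1% of those of HNF4G were among those of FOXA1.

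The 3 FOXA1-only loops of highest value, all at 20, each had a promoter at 1 end or both. The first joined chr5:64370570-64373063, where no gene is annotated, to the promoter of Klf3, a zinc finger repressor, over 436.1 kb. The second joined the anchor of Rara, a retinoic acid receptor, to that of Krt19, a ductal keratin, at chr11:100143925-100152377, over 1200 kb. The last, of 325.3 kb, ended at the start of Efna5, an ephrin ligand, on chromosome 17. All 3 were in the FOXA1 liver mets list, at values of 3.41, 1.87 and 7.48, and the Efna5 loop was also in the HNF4G liver mets list at 8.40.

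On the HNF4G side 5 loops were tied at a value of 20, and the first 3 by chromosome and start are described. One spanned 186.0 kb on chromosome 2, from an anchor 78.2 kb from Dlx2 into an intron of Itga6, the integrin alpha 6 gene. Another joined the starts of Adgrb2, an adhesion receptor, and Pef1 over 119.5 kb. The last joined Vgf, a neuropeptide precursor, and Ache, the acetylcholinesterase gene, over 256.7 kb. None of these was in the FOXA1 tumor list, yet all 3 were in the FOXA1 liver mets list, at values of 20, 2.53 and 2.98. They were in the HNF4G liver mets list at 3.14, 5.97 and 1.85.

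Promoter contacts separated the factor-only sets. A promoter anchor had an annotated start within 2 kb. HNF4G-only loops had a promoter at 1 or both anchors in 76.5% and FOXA1-only loops in 70.9%, a difference of -5.56 percentage points for FOXA1-only minus HNF4G-only (95% interval -6.06 to -5.06). The difference lay in promoter-promoter loops, which were 32.1% of HNF4G-only loops and 26.6% of FOXA1-only loops (-5.55 points, -6.07 to -5.02). Loops with a promoter at exactly 1 anchor made up 44.4% of both sets. Shared loops were at 31.7% for promoter-promoter contacts, close to the HNF4G-only loops in spite of their shorter span. Matched on span, the promoter-promoter difference was -5.29 points (-5.82 to -4.76). It held the same direction in all 8 span ranges, from 18.2% against 21.4% below 10 kb to 29.2% against 35.4% above 1000 kb. The intervals overlapped below 10 kb and between 10 and 20 kb. Among factor-only loops that had any promoter anchor, the other anchor was a promoter too in 37.4% of FOXA1-only (37.0 to 37.8) and 42.0% of HNF4G-only loops (41.4 to 42.5).

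Factor-only sets were also formed from the liver mets lists, which had no part in the tumor sets, and the direction was the same. There the promoter-promoter share was 25.9% for FOXA1-only and 29.8% for HNF4G-only loops, a difference of -3.89 points (-4.41 to -3.37). The lines share most anchors, and so their promoter class, since 24849 of 30542 anchors were in all 4 lists.

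**Figure D2:**
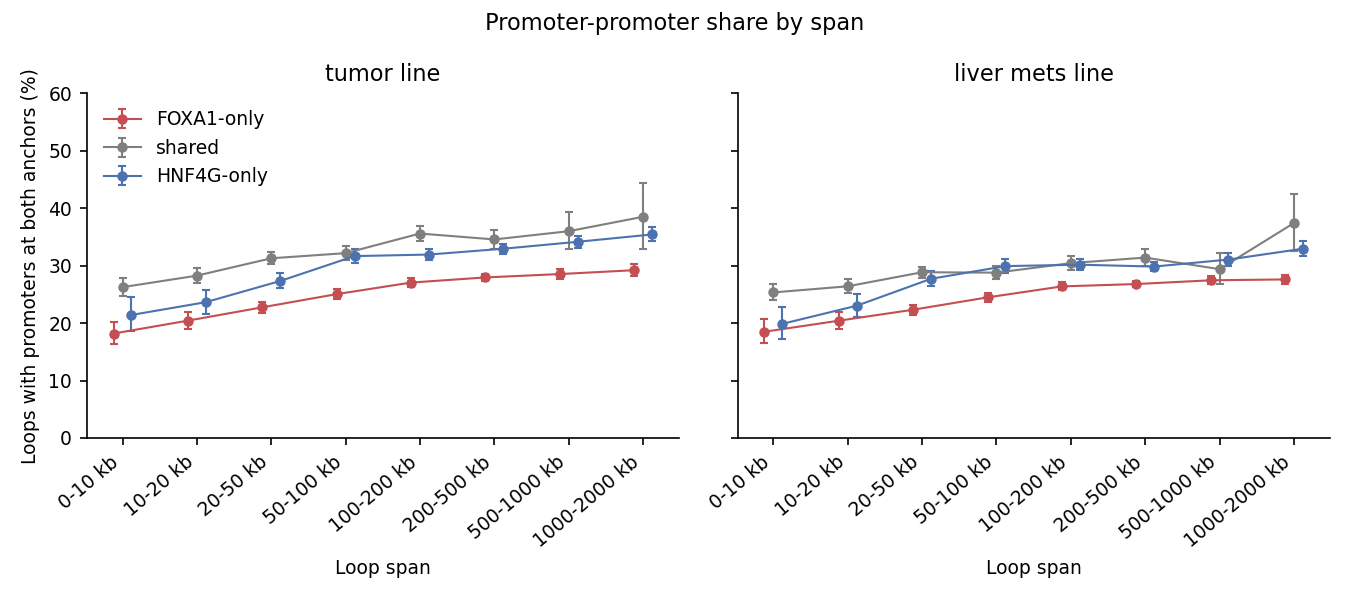
Share of loops with promoters at both anchors (%, y axis) by span (x axis), for FOXA1-only, shared and HNF4G-only loops of the tumor line (left) and the liver mets line (right), with 95% Wilson intervals. FOXA1-only loops lay below HNF4G-only loops in all 8 ranges of both lines.

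Span differed little between the factor-only sets and did not hold its direction. A span of at least 100 kb was found in 69.4% of FOXA1-only and 72.9% of HNF4G-only loops, a difference of -3.48 points (-4.00 to -2.95). In the liver mets line the same difference was 3.32 points (2.81 to 3.84). Among tumor loops with a value of 2 or more it was 0.633 points (-0.0285 to 1.38).

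Factor-only loops of the tumor line were looked up in the liver mets lists. Both factor-only sets were found again at similar rates, well below the shared loops. FOXA1-only loops were found in the FOXA1 liver mets list in 30.6% and in the HNF4G liver mets list in 20.1%. For HNF4G-only loops these shares were 27.7% and 19.5%. Shared loops were found in 67.6% and 56.1%. HNF4G-only loops were thus listed more often for FOXA1 than for HNF4G in the liver mets line, where the FOXA1 list was the longer one with 125623 loops against 78098. In the FOXA1 liver mets list the difference, FOXA1-only minus HNF4G-only, was 2.82 points (2.30 to 3.34), and 1.20 points (0.710 to 1.69) once matched on span. In the HNF4G liver mets list it was 0.594 points (0.134 to 1.05) and turned to -0.764 points (-1.20 to -0.330) once matched, so its direction rested on the matching. These differences were small beside the share of factor-only loops in neither liver mets list, 60.3% for FOXA1-only and 62.6% for HNF4G-only loops. Of the shared loops, 20.9% were in neither and 44.6% in both.

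**Figure D3:**
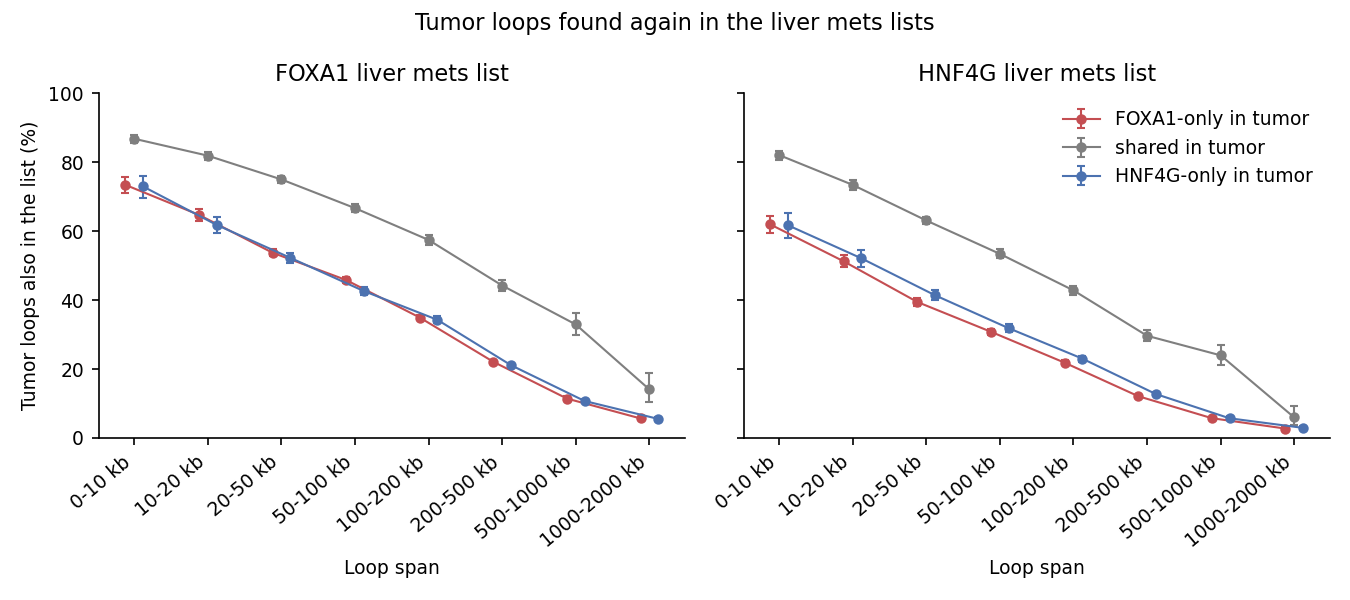
Share of tumor loops that were also listed in the liver mets line (%, y axis) by span (x axis), in the FOXA1 list (left) and the HNF4G list (right), for loops that were FOXA1-only, shared or HNF4G-only in the tumor line, with 95% Wilson intervals. Shared loops lay above both factor-only sets in every range of both lists, and in the last range of the HNF4G list they were at 5.93% against 2.71% and 2.91%.

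Genes were compared by the loops that ended at their promoters. Protein-coding genes with the same promoter anchors counted as 1, and 2843 had at least 20 loops in both lists together. A gene was called toward a factor at a 2-fold ratio of list shares, which is a rule of size and not a test. Toward FOXA1 52 genes were called (1.83% of those counted) and toward HNF4G 148 (5.21%). The 95% interval lay above 1 in 21 genes (0.739%) and below 1 in 145 (5.10%). Fewer genes thus had an interval above 1 than were called toward FOXA1. Among this many genes some 95% intervals leave out 1 by counting error alone, and how many did so was not tested. The nearest genes on either side of the limit had log2 ratios of 1.03 and 0.99 toward FOXA1. Over all genes counted the median log2 ratio was -0.17, and 64.9% lay below 0.

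Gene models with names that end in Rik or are Gm and a number were left out of the ranking of named genes. Toward FOXA1 this left out 2810408A11Rik, which had the highest bound with 18 FOXA1 and 2 HNF4G loops (ratio 6.60, 1.58 to 58.6), and Gm11562, with 20 and 5 loops (ratio 2.93, 1.07 to 10.00). Among the other genes called toward FOXA1, the first was Srpk1, a kinase of splicing factors, with 21 FOXA1 and 4 HNF4G loops, a ratio of list shares of 3.85 (1.30 to 15.4). In liver mets it had 20 and 6 loops (ratio 2.07, 0.803 to 6.31). Zfand3 had 23 and 5 loops, and Uck1, a kinase of pyrimidine salvage, 20 and 4. Ano10 had 20 and 4. Schip1 and Ogg1, the glycosylase that removes oxidized guanine from DNA, each had 25 and 6 loops. Of the 25 Schip1 loops, 19 were FOXA1-only and 3 of these reached another promoter. For Ogg1, 24 were FOXA1-only and 16 reached another promoter. Irf2, an interferon regulatory factor, had 21 and 5 loops, with none listed for HNF4G only. Nme7, of the nucleoside diphosphate kinase family, had 18 and 4 loops and shared none. Rrp12, which acts in ribosome maturation, also had 18 and 4, and Wdr25 had 17 and 4. Ash1l, a histone methyltransferase, and Dap3, a mitochondrial ribosomal protein, share 1 promoter anchor with 19 and 5 loops. Dnttip1 and Wfdc3 share the same 2 promoter anchors, with 17 and 4 loops (ratio 3.11, 1.02 to 12.7). Their counts in liver mets were 9 and 14, which gave a ratio on the other side of 1 (0.400, 0.153 to 0.991). These 12 entries had ratios of 2.79 to 3.85 in the tumor line. In the liver mets line 7 of them were above 1, where 39.6% of all genes counted in both lines were. The interval lay above 1 in none of the 12, and Ash1l/Dap3 had only 19 loops there.

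Genes called toward HNF4G were led by Kcnh3, a voltage-gated potassium channel, with 6 FOXA1 and 32 HNF4G loops, a ratio of list shares of 0.137 (0.0470 to 0.333). Of these, 27 were HNF4G-only, with a median span of 453.7 kb, and 19 of the 27 reached another promoter. In the liver mets line its counts were 19 and 8 (ratio 1.48, 0.617 to 3.90). Drd4, a dopamine receptor, had 5 and 22 loops. C1ql1, which is secreted at synapses, had 7 and 26, and Agap2, a GTPase-activating protein, 9 and 30. Syt2, a synaptotagmin of synaptic vesicles, had 7 and 25 loops in tumor and 4 and 9 in liver mets. Its interval was below 1 in both (0.0749 to 0.488 and 0.0622 to 0.990), though the liver mets count of 13 was under the minimum of 20. Wnt6, a secreted Wnt ligand, and Cabp7, a calcium-binding protein, each had 4 and 18 loops. Gata2, a zinc finger factor of blood and placenta, had 5 and 19 loops, but 15 and 3 in liver mets (ratio 3.11, 0.879 to 16.8). Tmem200b had 6 and 21. Nptx1, a neuronal pentraxin, had 18 and 40, Rnf157, a ubiquitin ligase, 8 and 23, and Efna3, an ephrin ligand, 20 and 43. In liver mets, 9 of these 12 genes were below 1, where 60.4% of all genes counted in both lines were. Syt2, Wnt6, Cabp7, Gata2 and Tmem200b had fewer than 20 loops there. All 12 had 1 promoter anchor each, against 4 of the 12 entries toward FOXA1.

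The partners of these promoters were counted from the promoter end, so the shares do not compare directly with those per loop given above. Of the 254 HNF4G-only loops of the 12 genes toward HNF4G, 62.6% reached another promoter (56.5 to 68.3). Of the 212 FOXA1-only loops of the 12 entries toward FOXA1, 49.1% did (42.4 to 55.7). These loops were pooled over selected genes, and the genes varied. Toward FOXA1 the counts ran from 3 of 19 at Schip1 to 14 of 19 at Ano10. Toward HNF4G they ran from 9 of 22 at Syt2 to 18 of 22 at Agap2.

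**Figure D4:**
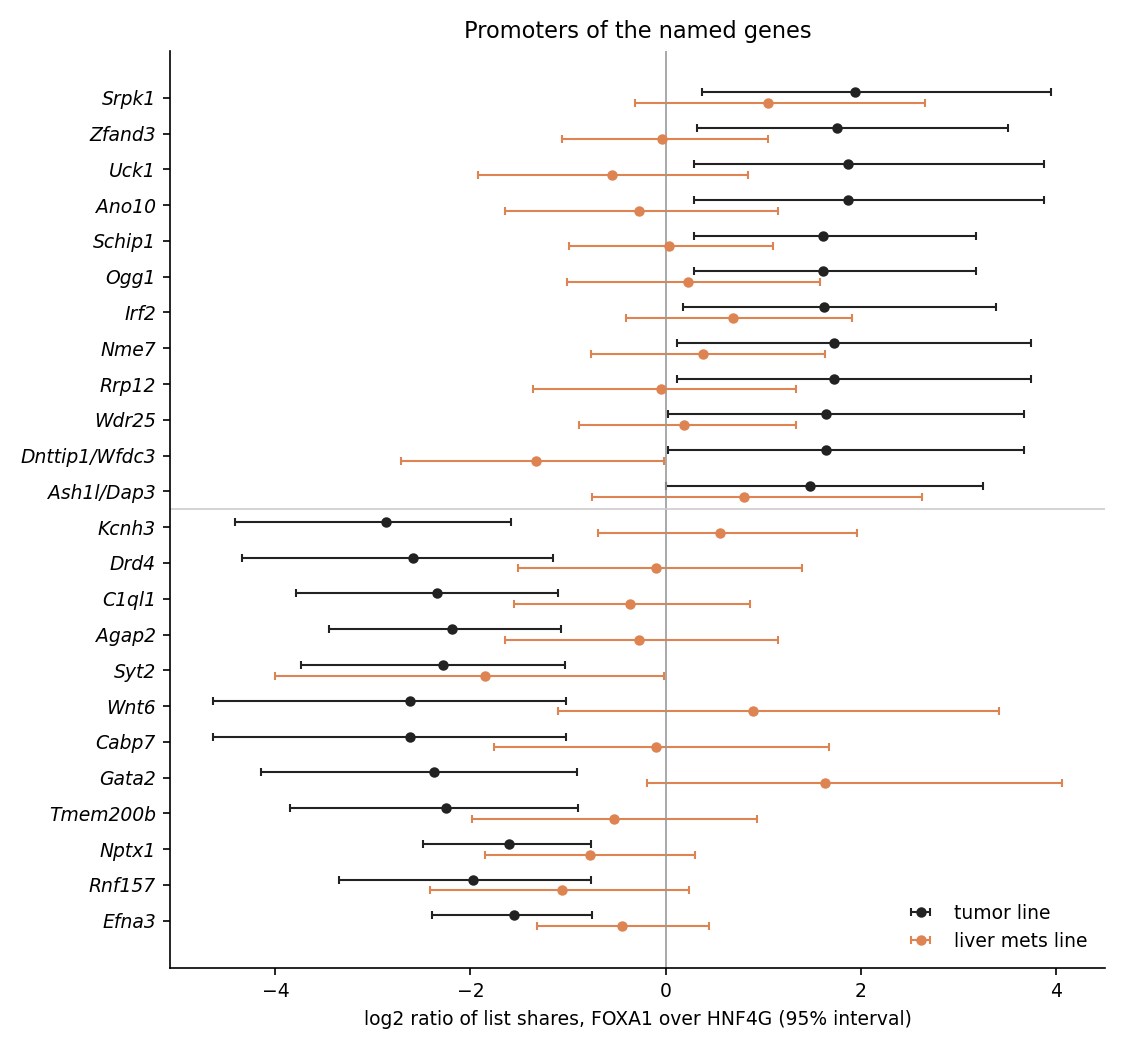
Log2 ratio of list shares, FOXA1 over HNF4G (x axis), for the 12 entries first toward FOXA1 (top) and the 12 first toward HNF4G (bottom), Rik and Gm gene models left out, in the tumor line (black) and the liver mets line (orange), with 95% exact intervals. The tumor intervals exclude 0 because the genes were ranked by them, whereas 22 of the 24 liver mets intervals include 0, the exceptions being Dnttip1/Wfdc3 and Syt2.

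The liver mets lists were then used to look up all called genes. Of 42 genes called toward FOXA1 with at least 20 loops there, 26 were above 1 (61.9%, lower bound 46.8), where 39.6% of all 2573 genes counted in both lines were above 1. Of 110 called toward HNF4G, 90 were below 1 (81.8%, 73.6 to 87.9), where 60.4% of all genes were. The sizes fell. The median log2 ratio of the called genes went from 1.25 to 0.04 for FOXA1 and from -1.26 to -0.34 for HNF4G. Only 2 genes toward FOXA1 (Srpk1 and Scd1, a fatty acid desaturase) and 5 toward HNF4G (Dlx3, Fgf8, Rnf157, Bcan and Hapln2) were called on the same side in both lines. Across the 2573 genes, which share anchors and loops and are not replicates, the log2 ratios of the lines had a Pearson r of 0.14.

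Of the 2573 genes with at least 20 loops in each line, 5 had intervals on the same side of 1 in both. They are named here after their values were seen. Syt2, described above, is not among them because it had fewer than 20 loops in liver mets. Dlx3, a homeobox gene of ectoderm, had 27 FOXA1 and 53 HNF4G loops in tumor and 26 and 35 in liver mets. Fgf8, a growth factor of the embryo, had 20 and 30, then 17 and 23. Ache had 22 and 42, then 23 and 27, and Cacna1g, a calcium channel, 42 and 48, then 40 and 44. St3gal6, a sialyltransferase, stood alone toward FOXA1 with 48 and 20, then 49 and 16 loops (ratios 1.76 and 1.90). Cacna1g and St3gal6 were short of the 2-fold limit.

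Gene lists of the pancreas and of epithelial cells were close to all genes. Among 18 counted lineage factors the median log2 ratio was -0.11, against -0.17 for all 2843 genes, and none was called toward FOXA1. Cdx2, an intestinal homeobox factor, was called toward HNF4G with 6 FOXA1 and 14 HNF4G loops. In liver mets its counts were 10 and 8. Klf5 (25 and 11 loops, log2 ratio 0.74) and Klf6 (21 and 8, log2 ratio 0.94), zinc finger factors of epithelium, were highest on the FOXA1 side. Grhl2, an epithelial regulator, was at -0.83 with 23 and 30 loops, and Hnf4a, the close relative of HNF4G, had 11 and 11. Epithelial junction genes had a median of -0.17 over 14 counted genes, with Cldn3 (10 and 17 loops) and Epcam (8 and 15) called toward HNF4G. In liver mets Cldn3 had 11 and 9 loops and Epcam 11 and 10. Cdh1, the E-cadherin gene, had 41 and 42 loops, a log2 ratio of -0.48.

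Of 12 counted nuclear receptors and partners, 11 were below 0 (91.7%, against 64.9% of all genes), with a median of -0.18 and none called. Rara had the most loops, 106 and 118. The median of the 10 receptors counted in liver mets was -0.27. Intestinal and hepatic HNF4 targets had 5 counted genes with a median of 0.05 and none called. Lgals2, Tmprss2, Vil1 and Cyp2s1 lay between 0.05 and 0.18, and Acsl5 (10 and 10 loops) lay at -0.45. Classical subtype markers had a median of -0.37 over 4 genes and basal or squamous markers -0.14 over 8, with none called in either.

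In the remaining lists single genes were called, beside 1.83% of all genes toward FOXA1 and 5.21% toward HNF4G. Of 6 counted mesenchymal genes Twist2 (9 and 17 loops) was called toward HNF4G, and the median was 0.05. Of 19 AP-1 and early response genes Btg2, an antiproliferative gene, was called toward FOXA1 with 21 and 7 loops, and the median was -0.19. Rpl32 was called toward FOXA1 (17 and 6 loops) among 21 counted ribosomal protein genes, whose median was -0.21. No call was made among 14 cell cycle and driver genes (median -0.01) or 8 transcription cofactors (median -0.08). Myc had 30 FOXA1 and 21 HNF4G loops, a ratio of list shares of 1.05 (0.580 to 1.92).

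Anchors gave the same picture with more members. Of 5191 anchors with at least 20 loops, 115 were called toward FOXA1 (2.22%) and 253 toward HNF4G (4.87%). The interval lay above 1 in 28 (0.539%) and below 1 in 169 (3.26%), and as for genes some of these can arise by counting error alone. First toward FOXA1 was an anchor at chr5:64343358-64346191, within Tbc1d1 and 44.8 kb from the nearest coding start, with 19 FOXA1 and 2 HNF4G loops. The anchor at chr11:69899382-69902756, with the starts of 2810408A11Rik and Neurl4, had 18 and 2. The intronic anchor of Hs2st1, a heparan sulfate sulfotransferase, at chr3:144549883-144553441 had 21 and 3, and 21 and 6 in liver mets. The intergenic anchor on chromosome 11, 123.2 kb from the start of Lgalsl, had 21 and 4. First toward HNF4G were the promoter anchors of Kcnh3, Drd4 and C1ql1, whose counts are those of the genes, and of Smagp, a small membrane glycoprotein, at chr15:100634301-100637801, with 3 and 18 loops. In liver mets the Smagp anchor had 5 and 4.

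Of the called anchors with at least 20 loops in liver mets, 51 of 85 toward FOXA1 (95% interval of the share 49.4 to 69.8) and 133 of 181 toward HNF4G (73.5%, 66.6 to 79.4) were on the same side there. Over all 4519 anchors counted in both lines, 42.0% were on the FOXA1 side and 58.0% on the HNF4G side. Both intervals were on the same side in 5 anchors, chosen after their values were seen. One was toward FOXA1, at chr6:113637749-113639428 with the start of Irak2, an interleukin receptor kinase, with 18 and 4 loops in tumor and 20 and 4 in liver mets. The others were toward HNF4G, at the starts of Dlx3, Fgf8 and Ache and at chr10:79797029-79799092, where no start lay within 2 kb and the counts were 7 and 19 in tumor and 9 and 19 in liver mets.

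Promoter class and base composition followed the ratio of the anchors, neither of which had been used to call them. An annotated start lay within 2 kb of 74.3% of anchors toward HNF4G (68.6 to 79.3), 46.1% of those toward FOXA1 (37.3 to 55.2) and 59.0% of all counted. The share fell step by step over 6 classes of the log2 ratio. The median GC content was 55.6% toward HNF4G, 48.3% toward FOXA1 and 51.5% over all. GC content differed in the same direction within each promoter class. Among promoter anchors the medians were 56.8% and 50.8%, and among anchors without a start 51.4% and 47.5%. CpG pairs were at 34.7 per kb toward HNF4G and 13.9 per kb toward FOXA1 in the median. The GC content had a Pearson r of -0.29 with the log2 ratio in tumor and -0.19 with the ratio in liver mets, across 4519 anchors that share loops. Whether base composition affected how many loops a library gave was not tested.

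**Figure D5:**
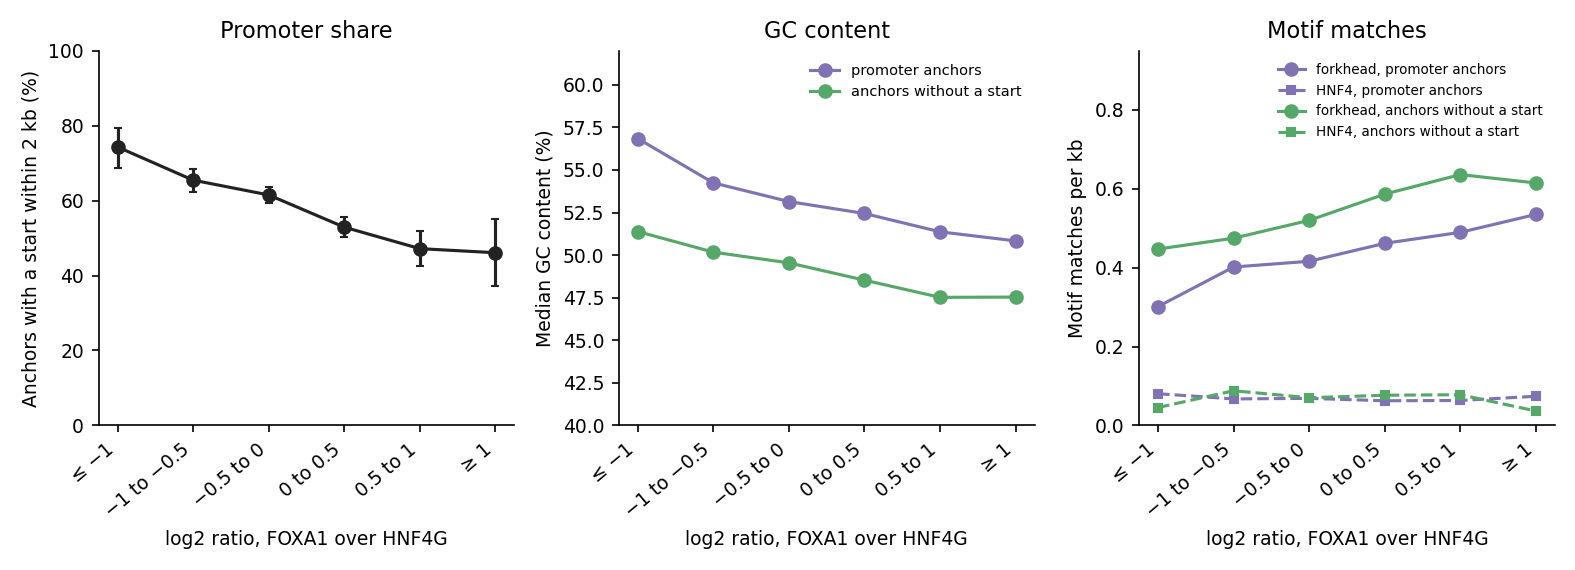
Promoter share (%, with 95% Wilson intervals), median GC content (%) and motif matches per kb of anchors with at least 20 loops, by class of the log2 ratio of list shares in the tumor line (x axis, HNF4G side at left), the last 2 panels drawn separately for promoter anchors and anchors without a start within 2 kb. Promoter share falls from 74.3% to 46.1%, forkhead matches are lowest in the class furthest toward HNF4G, and HNF4 matches stay below 0.09 per kb in every class.

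Motifs were searched on both strands. Forkhead matches were the letters TGTTTAC, a variant TATTTAC and a further variant TGTTTGC. They were found at 0.578 per kb in anchors toward FOXA1, 0.336 in anchors toward HNF4G and 0.472 in all counted. The difference between the called groups was 0.242 per kb (counting SE 0.046). At least 1 forkhead match was in 75.7% of anchors toward FOXA1, 56.5% of those toward HNF4G and 75.4% of all. These shares also move with anchor width, whose median was 2.80 kb toward FOXA1, 2.54 kb toward HNF4G and 3.26 kb in all. HNF4 matches were the letters CAAAGTCC, or as an alternative CAAAGGTCA. They were at 0.054 per kb toward FOXA1, 0.072 toward HNF4G and 0.070 in all, a difference of -0.018 per kb (counting SE 0.016). They were found in 15.7%, 17.8% and 22.8% of these anchors.

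Other motifs moved as well. AP-1 letters (TGANTCA) were at 0.462 per kb toward FOXA1, 0.247 toward HNF4G and 0.379 in all, and were in 66.7% of all anchors. GC boxes (GGGCGG) were at 0.539, 1.48 and 0.827 per kb, and were in 71.6% of all anchors. Matches to the CTCF core were at 0.011, 0.033 and 0.026 per kb, and were in 9.13% of all. AP-1 and forkhead letters are poor in GC and GC boxes rich in it, and the GC content of these anchors differed as given above. A GC box can overlap the end of a CTCF core. The part of base composition in these differences was not tested.

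Windows of 1 Mb showed the opposite balance. Loops were assigned by their midpoint, and a window was called at a 1.5-fold ratio. Of 1196 windows with at least 20 loops, 153 were called toward FOXA1 (12.8%) and 53 toward HNF4G (4.43%). The median log2 ratio was 0.08, above 0, whereas that of genes was below 0. The interval lay above 1 in 69 windows (5.77%) and below 1 in 54 (4.52%).

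First toward FOXA1 was chromosome 10 from 98 to 99 Mb, where Atp2b1, a calcium pump, was the only coding gene with a promoter anchor. It had 77 FOXA1 and 23 HNF4G loops, a ratio of 2.45 (1.52 to 4.10), and 108 and 40 in liver mets (1.68, 1.16 to 2.48). The window of Hs2st1, Lmo4 and Sh3glb1 on chromosome 3 (144000001 to 145000000) had 114 and 39 loops. The one of Pax8 and Il1rn on chromosome 2 (24000001 to 25000000) had 62 and 20. Chromosome 8 from 82000001 to 83000000, with Il15 and Zfp330, had 29 and 7 loops in tumor and 34 and 5 in liver mets (ratio 4.23, 1.64 to 13.8). These windows were at 1.26 or more in liver mets too, with the interval above 1 in those of Atp2b1 and Il15.

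First toward HNF4G was chromosome 5 from 147000001 to 148000000, which holds the homeobox genes Pdx1, Cdx2 and Gsx1 and the receptor genes Flt1 and Flt3. It had 112 FOXA1 and 137 HNF4G loops, a ratio of 0.599 (0.463 to 0.775). In liver mets the counts were 172 and 103, a ratio of 1.04 (0.809 to 1.34). The window of Fgfr3 and Nsd2 on the same chromosome (33000001 to 34000000) had 39 and 56. Arhgap22 was the only coding gene with a promoter anchor in its window on chromosome 14, with 20 and 32 loops. A window on chromosome 17 with Nfya and Apobec2 had 9 and 18 loops, and 15 and 15 in liver mets.

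In the liver mets lists 106 of 150 windows called toward FOXA1 were above 1 (70.7%, 62.9 to 77.4), where 52.8% of all 1179 windows counted were. Of 51 called toward HNF4G, 31 were below 1 (60.8%, 47.1 to 73.0), where 47.2% of all were. That interval included the share of all windows. Both intervals were above 1 in 17 windows and below 1 in 10, and they were on opposite sides in none. The Pearson r of the log2 ratios of the lines was 0.29 across 1179 windows, higher than across genes.

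The FOXA1 windows were densest on chromosome 13. There 53 of 63 counted windows were above 1 (84.1%, against 58.3% of all), with 19 called toward FOXA1 and 1 toward HNF4G. Over the chromosome FOXA1 had 3173 and HNF4G 1780 loops, a ratio of list shares of 1.31 (1.23 to 1.39). The ratio was 1.31 (1.24 to 1.39) in liver mets, from 4064 and 1925 loops. Of the 20 chromosomes, 7 had an interval above 1 and 4 below 1, and 9 of these 11 were on the same side in liver mets. Chromosome 11 was the lowest at 0.897 (0.873 to 0.922), and at 0.972 (0.947 to 0.999) in liver mets.

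Anchors used by 1 factor alone were few. Of the anchors with loops in the tumor lists, 26432 were in both, 2659 in the FOXA1 list only and 807 in the HNF4G list only. Promoter anchors made up 35.6% of the FOXA1-only anchors (33.8 to 37.4) and 46.0% of the HNF4G-only anchors (42.6 to 49.4), beside 46.4% of those in both. They carried few loops, with a median of 2 for FOXA1-only and 1 for HNF4G-only anchors. Over the series, 24849 of 30542 anchors had the same start and end in all 4 lists. Whether anchors were defined jointly for the lists is not given in the sources used here. The part of this in the sharing of anchors was not tested.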

How the data were processed

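FOXA1 and HNF4G Hi-ChIP was measured in the tumor and liver mets lines of KPC mice, with 2 replicates per group. The authors aligned reads with HiC-Pro 3.1.0 (per the labels) and called loops with hichipper, and deposited 1 loop list per group on mm10. How replicates were joined, and the read depth, are not given in the sources used here. The deposited value of each loop was read as −log10 of a p or q value from its range alone, and the deposited score column was not used for any comparison.

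Loops were matched by identical anchor pairs. Promoters came from GENCODE M21 and sequence from RefSeq GRCm38. A ratio of list shares was computed per gene, anchor and 1 Mb window with at least 20 loops, and called at 2-fold (windows 1.5-fold). The genes, anchors, windows and loops named are the first 12, 4, 4 and 3 per factor, ranked by the bound of the interval nearest to 1 (loops by value, ties by chromosome and start). Gene models named Gm plus a number or ending in Rik were named only where they share their promoter anchors with another gene. Members and lists were chosen with earlier results of these data known. Intervals are exact for ratios, Wilson for shares and Newcombe for differences. They cover counting error only and ignore that many loops have an anchor in common. The computation was tested on simulated data. Some items are not reported here. Alternatives changed the minimum value, the matching of anchors, the promoter distance, the loop minimum, the fold, the span range and the window size. Python 3.11.15, pandas 2.3.3, numpy 2.4.6, scipy 1.17.1 and matplotlib 3.10.9 were used.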

Additional observations from a re-analysis of the deposited data

Results flagged for a closer look

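The share of loops of at least 100 kb differed in direction between the lines. FOXA1-only minus HNF4G-only was -3.48 percentage points in the tumor line and 3.32 in the liver mets line. The median span showed the same turn, at -28.3 kb in tumor and 31.2 kb in liver mets. Dnttip1/Wfdc3 had a log2 ratio of list shares of 1.64 in tumor and -1.32 in liver mets. With 1 list per group, none of these differences between the lines was tested.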

How the results depend on the processing

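No paired analysis was possible because both replicates of a group stood in 1 list. For the same reason no replicate could be left out. The ratio of loop numbers, 1.36, was 1.46 at a value of 2 or more and 1.30 at 4 or more. The shared part of the HNF4G list, 38.7%, was 61.7% with anchors widened by 5 kb, 24.1% at a value of 2 or more in both lists and 18.1% for equal numbers of top loops. The median span of FOXA1-only loops was 222.4 kb at a value of 2 or more, 190.1 kb for loops of 20 kb to 1 Mb and 298.8 kb with widened anchors. For HNF4G-only loops it was 220.1, 206.0 and 360.9 kb. The difference in loops of at least 100 kb reversed to 0.633 points at a value of 2 or more, and the cause was not tested. It was -4.25 points with widened anchors. The difference in loops with a promoter was -6.43 points with a start inside the anchor, -3.95 within 5 kb, -6.88 for coding genes only and -9.31 at a value of 2 or more. That for promoters at both anchors was -6.15 within 5 kb and -12.2 at a value of 2 or more.

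Counts of calls followed the limits. Toward FOXA1 there were 6 genes and 7 anchors at 30 or more loops, 206 and 441 at 1.5-fold, and 34 and 58 for loops of 20 kb to 1 Mb. Toward HNF4G there were 65 genes and 78 anchors at 30 or more loops, and 520 and 901 at 1.5-fold. Windows toward FOXA1 numbered 40 at 2-fold, 90 at 40 or more loops and 93 at 2 Mb, and those toward HNF4G 7, 27 and 13. The part of calls toward FOXA1 moved from 26% to 8.45% for genes and from 31.2% to 8.24% for anchors at 30 or more loops. For windows it moved from 74.3% to 85.1% at 2-fold and 87.7% at 2 Mb. Genes called toward HNF4G were on the same side in liver mets in 72.9% for loops of 20 kb to 1 Mb, from 81.8%. For genes called toward FOXA1 this share went from 61.9% to 56.25% (39.3 to 71.8) for those loops. With list shares taken within span ranges it was 82.4% toward HNF4G and 52.4% (37.7 to 66.6) toward FOXA1. Both of these FOXA1 intervals include the 39.6% of all genes found with all loops.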
